A study of Mus musculus with 10 samples.

Results

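In bulk RNA of isolated heart muscle cells, the TGF-beta system was examined through 10 mouse genes. These genes, and the pathway and marker lists used below, were chosen by name with earlier results of these data known. Their counts of calls are therefore descriptions, also where the share of all genes stands beside them. The 10 genes encode the 3 ligands (Tgfb1, Tgfb2 and Tgfb3), the 3 receptors (Tgfbr1, Tgfbr2 and Tgfbr3) and the 4 latent TGF-beta binding proteins (Ltbp1, Ltbp2, Ltbp3 and Ltbp4). All 10 genes were found among the 45882 gene IDs of the series and all 10 passed the filter on low levels. RNA was sequenced from adult left-ventricular cardiac myocytes of C57BL/6 mice after their isolation, with 1 mouse per library and 10 libraries in all. The groups were CTCF knockout mice (4 libraries), mice with transverse aortic constriction, or TAC (3 libraries), and control mice (3 libraries). CTCF, a DNA-binding zinc finger protein, anchors chromatin loops. TAC is a surgical narrowing of the aorta that puts a pressure load on the left ventricle. The knockout allele, the promoter that drove the deletion, the age of the mice, the genotype of the TAC mice and the time after surgery are not given in the sources used here, so it is not known whether the controls carried an allele or operation of their own. The comparisons ask how RNA levels of these genes in the knockout and in pressure overload differed from control hearts, and from each other.

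TGF-beta ligands are secreted as dimers that stay wrapped in their own propeptide, the latency-associated peptide. Latent binding proteins attach this latent complex to fibrillin and fibronectin in the matrix, and integrins, proteases and thrombospondin release the ligand. The active ligand binds Tgfbr2, which phosphorylates Tgfbr1, and Tgfbr1 in turn phosphorylates Smad2 and Smad3. Tgfbr3, or betaglycan, is a co-receptor without a kinase that presents TGF-beta 2 in particular. In the heart the pathway is best known for activating fibroblasts and for the deposition of collagen.

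Levels are given as FPKM, fragments per unit of transcript length and of sequencing depth, rescaled between libraries and summed over the transcripts of a gene. Read counts are not part of the tables used here, and the depth behind each value is unknown. The median coverage per FPKM, a relative measure of depth, ranged from 3.90 to 6.09 between libraries. Ctcf RNA lay at 2.60 to 4.42 FPKM in knockout, 5.22 to 7.32 FPKM in TAC and 6.80 to 8.81 FPKM in control libraries. Markers of cardiac myocytes summed to 26839 to 35314 FPKM in knockout, 27796 to 35493 FPKM in TAC and 32380 to 35827 FPKM in control libraries. Myocyte RNA was thus high in every library, but these sums do not measure how pure the cells were. RNA of other cells was also measured, and its marker sums are given beside the results below. Of the 10 mice, 4 were male by Xist and Y-linked RNA, namely knockout replicate 4, TAC replicates 1 and 3 and control replicate 2.

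Compared with controls, RNA of Tgfb2, Tgfb3, Ltbp2, Ltbp3 and Ltbp4 was higher in both the knockout and the TAC libraries, and RNA of the co-receptor Tgfbr3 was lower in both. The libraries also held RNA of other cells, and which cells these changes came from was not tested. In the knockout, 5 of the 10 genes rose, 1 fell and 4 did not pass, where 20.8% of all 11358 tested genes were called (limma, adjusted p under 0.05), 10.6% higher and 10.2% lower. For 6 of the 10, knockout and control libraries did not overlap, as was so for 30.8% of all tested genes. Their median log2 fold change was 0.45, against -0.0078 over all tested genes. In TAC, 6 of the 10 rose, 2 fell and 2 did not pass, where 15.5% of all tested genes were called, 8.08% higher and 7.37% lower. Their median was 0.59 against -0.0048 over all tested genes, and for 8 of the 10, TAC and control libraries did not overlap, as was so for 31.6% of all tested genes. Tgfb1 rose and Ltbp1 fell in TAC and did not pass in the knockout, and the direct test between knockout and TAC called Ltbp1 but not Tgfb1 (limma, adjusted p = 0.354). The kinase receptors Tgfbr1 and Tgfbr2 did not pass in either comparison. Fold changes are of log2(FPKM + 1), a scale that understates the change of genes near or below 1 FPKM, and p values reflect the spread between mice. Over all genes, 1203 rose and 1159 fell in the knockout, and 918 rose and 837 fell in TAC. Without rescaling these became 1670 and 603 in the knockout and 1016 and 513 in TAC, and with every library scaled to the same total 945 rose and 281 fell in TAC.

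**Figure D1:**
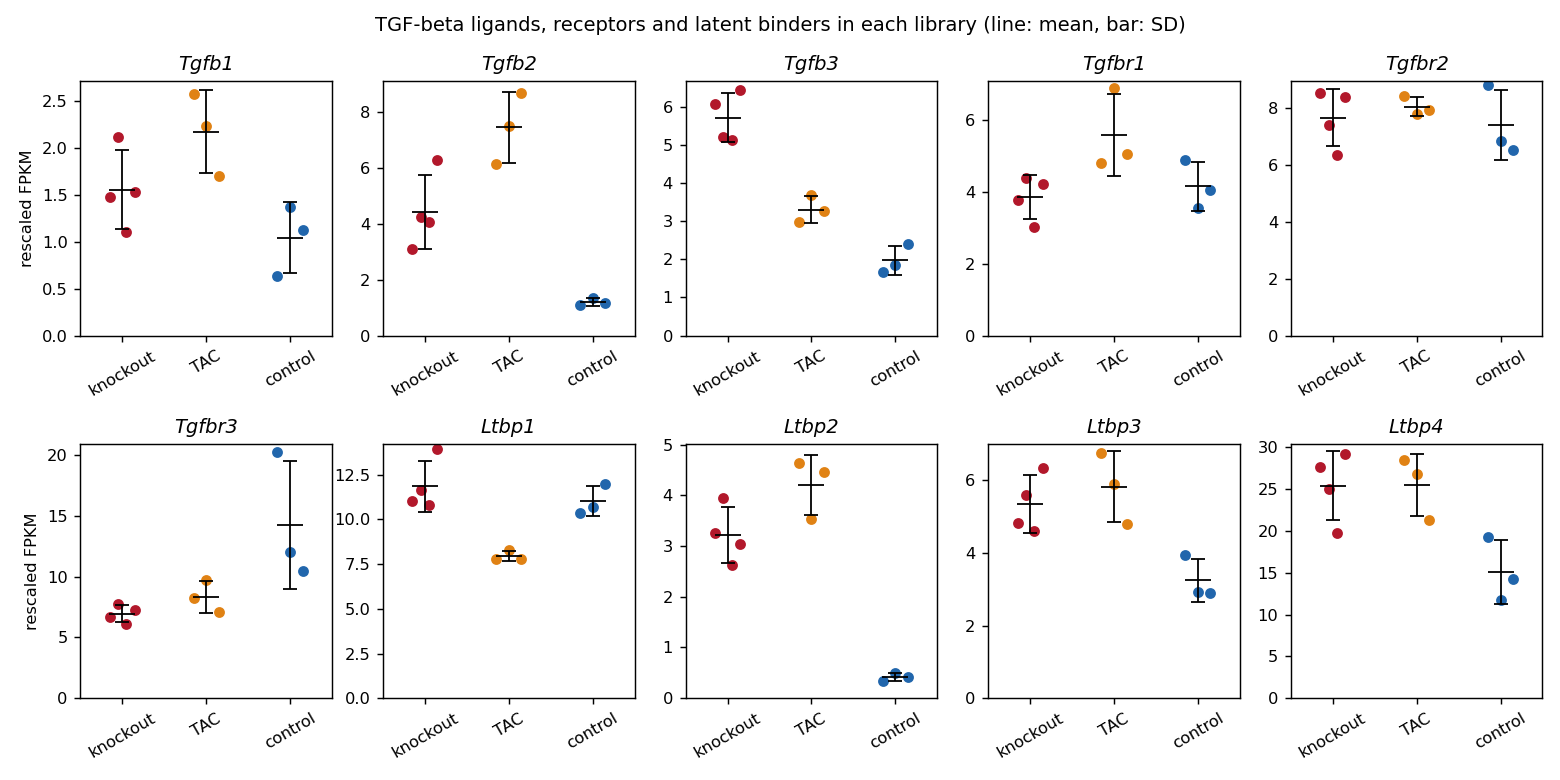
Level of each of the 10 genes in each library, in rescaled FPKM on the vertical axis, for CTCF knockout, TAC and control mice. Points are libraries, horizontal lines are means and bars are SD. Tgfb2, Tgfb3 and Ltbp2 lie higher in all knockout and all TAC libraries than in any control, and Tgfbr3 lies lower.

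Among the ligands, Tgfb2 and Tgfb3 rose in both groups, and Tgfb1 passed in TAC. Tgfb2 (ENSMUSG00000039239, chromosome 1, 186622792 to 186705989, minus strand, mm10) encodes the ligand that depends most on betaglycan. It had 3.10, 4.24, 4.04 and 6.27 FPKM in knockout, 6.13, 7.50 and 8.67 FPKM in TAC, and 1.07, 1.35 and 1.17 FPKM in control libraries. Every knockout and every TAC library lay above every control, and the highest knockout library reached into the range of TAC. The means were 4.41 ± 1.34 FPKM in knockout (SD, n = 4), 7.44 ± 1.27 FPKM in TAC (SD, n = 3) and 1.20 ± 0.142 FPKM in control (SD, n = 3), which is 3.68 times the control mean in the knockout and 6.21 times in TAC. The log2 fold changes were 1.27 (SE 0.17, limma adjusted p = 0.000527) in the knockout and 1.93 (SE 0.19, adjusted p = 0.000105) in TAC.

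Tgfb3 (ENSMUSG00000021253, chromosome 12, 86056744 to 86079041, minus strand) encodes a ligand best known from palate closure and heart development. It had 6.08, 5.22, 5.13 and 6.43 FPKM in knockout, 2.97, 3.68 and 3.26 FPKM in TAC, and 1.67, 1.85 and 2.39 FPKM in control libraries. The 3 groups did not overlap, with the knockout highest and the control lowest. Its log2 fold change was 1.18 (SE 0.12, limma adjusted p = 8.72e-05) in the knockout and 0.54 (SE 0.13, adjusted p = 0.0148) in TAC, and the TAC call was lost without TAC replicate 2 (0.0539). The gene Ttll5 overlaps Tgfb3 on the other strand without a shared exonic base, and it averaged 2.88 FPKM in knockout, 3.29 FPKM in TAC and 2.998 FPKM in control.

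Tgfb1 (ENSMUSG00000002603, chromosome 7, 25687002 to 25705077, plus strand), the ligand most often linked to fibrosis, was the lowest of the 3 in knockout, TAC and control by its mean. It had 1.47, 2.11, 1.11 and 1.53 FPKM in knockout, 2.57, 2.23 and 1.70 FPKM in TAC, and 0.628, 1.37 and 1.13 FPKM in control libraries. The TAC libraries lay above all controls, while knockout replicate 3 lay within the control range. The log2 fold change of 0.64 in TAC passed (SE 0.18, limma adjusted p = 0.0327), but the call was lost in 8 of 22 alternatives, sex as covariate among them. Leaving out control replicate 1 (adjusted p = 0.0992), control replicate 3 (0.0572), TAC replicate 1 (0.110) or TAC replicate 2 (0.0854) was enough to lose it. In the knockout the log2 fold change was 0.33 (95% interval -0.04 to 0.69, adjusted p = 0.198).

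The make-up of the ligand RNA differed between knockout and TAC. The 3 ligands summed to 10.6, 11.6, 10.3 and 14.2 FPKM in knockout, 11.7, 13.4 and 13.6 FPKM in TAC, and 3.37, 4.57 and 4.69 FPKM in control libraries. The sums of knockout and TAC overlapped and both lay above the controls. Tgfb2 made up 37.3% ± 6.27 of the sum in knockout (SD, n = 4), 57.4% ± 5.68 in TAC (SD, n = 3) and 28.8% ± 3.54 in control (SD, n = 3). Tgfb3 made up 49.3% ± 5.66 in knockout, 25.6% ± 1.76 in TAC and 47.0% ± 5.74 in control. Tgfb3 was thus the most abundant ligand RNA in 4 of 4 knockout and 3 of 3 control libraries by this share, and Tgfb2 in 3 of 3 TAC libraries. These shares are descriptions, and no test was made of them.

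**Figure D2:**
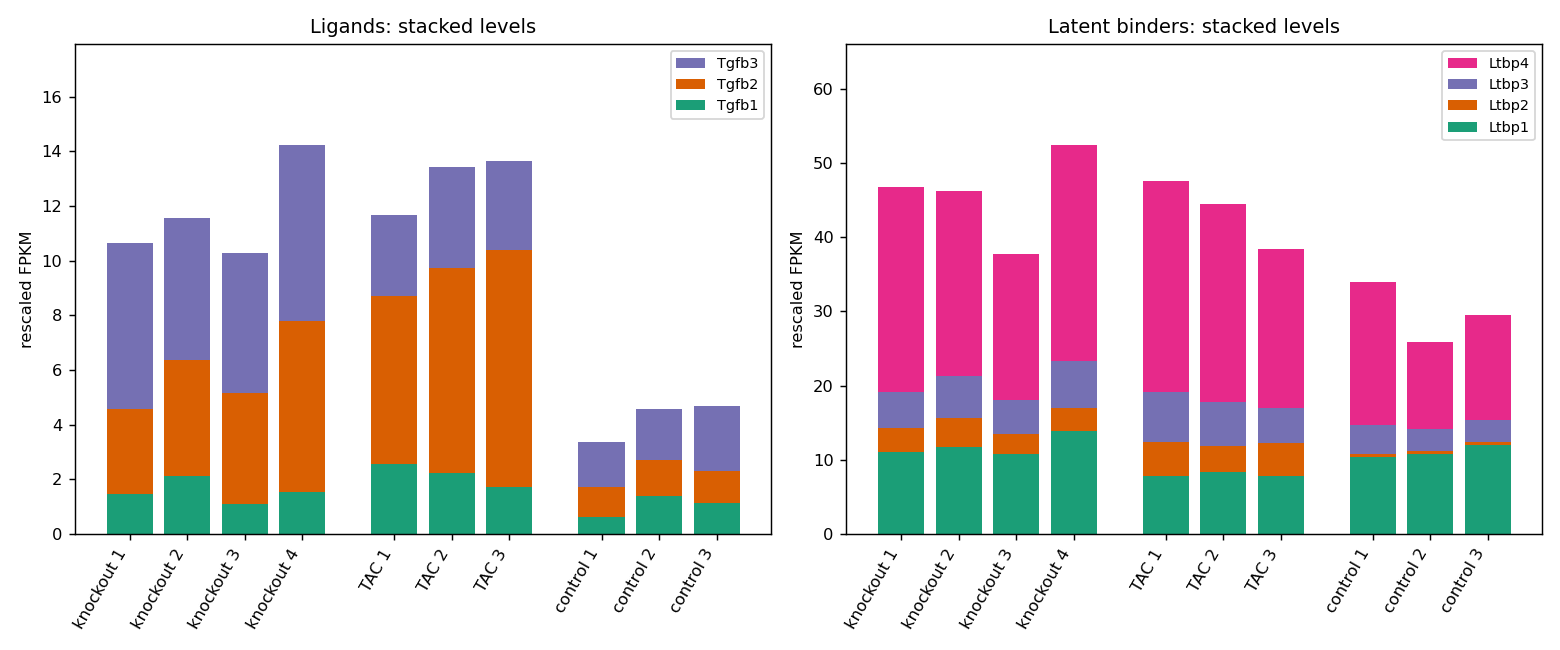
Stacked FPKM of the 3 ligands (left) and the 4 latent binders (right) in each library on the horizontal axis, knockout first, then TAC and control. Ligand sums lie between 10.3 and 14.2 FPKM in knockout, 11.7 and 13.6 FPKM in TAC and 3.37 and 4.69 FPKM in control, with Tgfb2 the larger part in TAC.

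Tgfbr3 was the receptor whose RNA changed. Tgfbr3 (ENSMUSG00000029287, chromosome 5, 107106570 to 107289629, minus strand) had 6.67, 7.78, 6.14 and 7.26 FPKM in knockout, 8.24, 9.71 and 7.07 FPKM in TAC, and 20.2, 12.04 and 10.5 FPKM in control libraries. All knockout and TAC libraries lay below all controls, and control replicate 1 stood far above the other controls. The log2 fold change was -0.89 in the knockout (SE 0.19, limma adjusted p = 0.0066) and -0.66 in TAC (SE 0.20, adjusted p = 0.0441). Without control replicate 1 the knockout value was -0.62 (adjusted p = 0.0114) and the TAC value was -0.40 (adjusted p = 0.0937). The TAC call was lost in 14 of 23 alternatives, including each that left out 1 library except that without control replicate 3, with adjusted p from 0.0503 to 0.139 in these, and up to 0.173 with every library scaled to the same total. Sex as covariate was also among the alternatives that lost it.

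The kinase receptors Tgfbr1 and Tgfbr2 did not pass in any comparison. Tgfbr2 (ENSMUSG00000032440, chromosome 9, 116087698 to 116175363, minus strand), the receptor that binds ligand first, had 8.51, 7.40, 6.35 and 8.37 FPKM in knockout, 8.42, 7.77 and 7.93 FPKM in TAC, and 8.80, 6.85 and 6.51 FPKM in control libraries. Its groups overlapped, with log2 fold changes of 0.05 in the knockout (95% interval -0.22 to 0.32, limma adjusted p = 0.820) and 0.12 in TAC (interval -0.17 to 0.40, adjusted p = 0.595). Tgfbr1 (ENSMUSG00000007613, chromosome 4, 47353222 to 47414931, plus strand), the receptor that phosphorylates Smads, had 3.78, 4.39, 3.03 and 4.22 FPKM in knockout, 4.79, 6.88 and 5.06 FPKM in TAC, and 4.88, 3.54 and 4.04 FPKM in control libraries. TAC replicate 2 was its highest library. The log2 fold changes were -0.09 in the knockout (interval -0.41 to 0.23, adjusted p = 0.718) and 0.35 in TAC (interval 0.01 to 0.69, adjusted p = 0.159). Of the summed receptor RNA, Tgfbr3 made up 37.8% ± 2.27 in knockout (SD, n = 4), 37.8% ± 2.36 in TAC (SD, n = 3) and 54.4% ± 4.97 in control (SD, n = 3). These shares count all annotated transcripts. The protein-coding Tgfbr3-201 averaged 57.5% of the Tgfbr3 sum in knockout, 56.8% in TAC and 61.4% in control. Most of the rest was a processed transcript and one with a retained intron. Tgfbr3-201 fell by 0.92 in the knockout (limma adjusted p = 0.0111) and by 0.72 in TAC (adjusted p = 0.0498) on the log2 scale.

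Among the latent binders, Ltbp2 had the highest fold changes and Ltbp1 was the member that went another way. Ltbp2 (ENSMUSG00000002020, chromosome 12, 84783212 to 84876532, minus strand) encodes the family member that binds fibrillin but does not bind the latency-associated peptide. It had 3.26, 3.95, 2.63 and 3.05 FPKM in knockout, 4.63, 3.53 and 4.45 FPKM in TAC, and 0.346, 0.498 and 0.413 FPKM in control libraries. All controls lay below 1 FPKM and all other libraries above it. The mean was 7.68 times the control mean in the knockout and 10.03 times in TAC. The log2 fold changes were 1.56 (SE 0.13, limma adjusted p = 2.61e-05) and, in TAC, 1.87 (SE 0.14, adjusted p = 1.49e-05). An antisense gene, D030025P21Rik, shares 764 exonic bases with Ltbp2 on the other strand and averaged 0.877 FPKM in knockout, 0.934 FPKM in TAC and 0.0233 FPKM in control. The libraries were stranded per the labels, but the strand setting of the counting is not given in the sources used here, so the division of reads in that overlap is uncertain.

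Ltbp4 and Ltbp3 rose in both groups. Ltbp4 (ENSMUSG00000040488, chromosome 7, 27305136 to 27337692, minus strand), a binder that also takes part in elastic fibre assembly, had the highest mean of the 10 genes in every group. It had 27.6, 25.0, 19.8 and 29.1 FPKM in knockout, 28.4, 26.8 and 21.3 FPKM in TAC, and 19.3, 11.7 and 14.3 FPKM in control libraries. The groups did not overlap the controls, although the lowest knockout library, at 19.8 FPKM, lay close to the highest control, at 19.3 FPKM. The log2 fold changes were 0.73 in the knockout (SE 0.17, limma adjusted p = 0.0131) and 0.74 in TAC (SE 0.19, adjusted p = 0.0211). Without control replicate 2 both calls were lost (adjusted p = 0.0583 in the knockout and 0.0767 in TAC). The TAC call was also lost without control replicate 3 (0.0565), TAC replicate 1 (0.0734) or TAC replicate 2 (0.0650).

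Ltbp3 (ENSMUSG00000024940, chromosome 19, 5740904 to 5758532, plus strand) encodes a binder of the latent complex needed for normal bone and teeth. It had 4.82, 5.61, 4.59 and 6.33 FPKM in knockout, 6.76, 5.90 and 4.80 FPKM in TAC, and 3.93, 2.93 and 2.88 FPKM in control libraries. No control reached the lowest knockout or TAC library. The log2 fold changes were 0.58 in the knockout (SE 0.14, limma adjusted p = 0.0132) and 0.68 in TAC (SE 0.15, adjusted p = 0.0104), and the knockout call was lost without control replicate 2 (0.0518).

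Ltbp1 (ENSMUSG00000001870, chromosome 17, 75005568 to 75392512, plus strand) encodes the founding member of the family, which links the latent complex to fibronectin and fibrillin. It had 11.1, 11.7, 10.8 and 13.9 FPKM in knockout, 7.78, 8.31 and 7.78 FPKM in TAC, and 10.4, 10.7 and 11.99 FPKM in control libraries. All TAC libraries lay below all others, while knockout and control overlapped. The log2 fold change was -0.42 in TAC (SE 0.11, limma adjusted p = 0.0240) and 0.09 in the knockout (95% interval -0.13 to 0.32, adjusted p = 0.571). The TAC call was lost in 6 of 23 alternatives. These included leaving out control replicate 2 (adjusted p = 0.0510), control replicate 3 (0.0787), TAC replicate 1 (0.0667) or TAC replicate 3 (0.0688), and scaling every library to the same total (-0.30, adjusted p = 0.318). Of the summed binder RNA, Ltbp1 made up 26.0% ± 2.08 in knockout (SD, n = 4), 18.4% ± 1.97 in TAC (SD, n = 3) and 37.5% ± 6.06 in control (SD, n = 3), and these shares did not overlap between the groups.

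**Figure D3:**
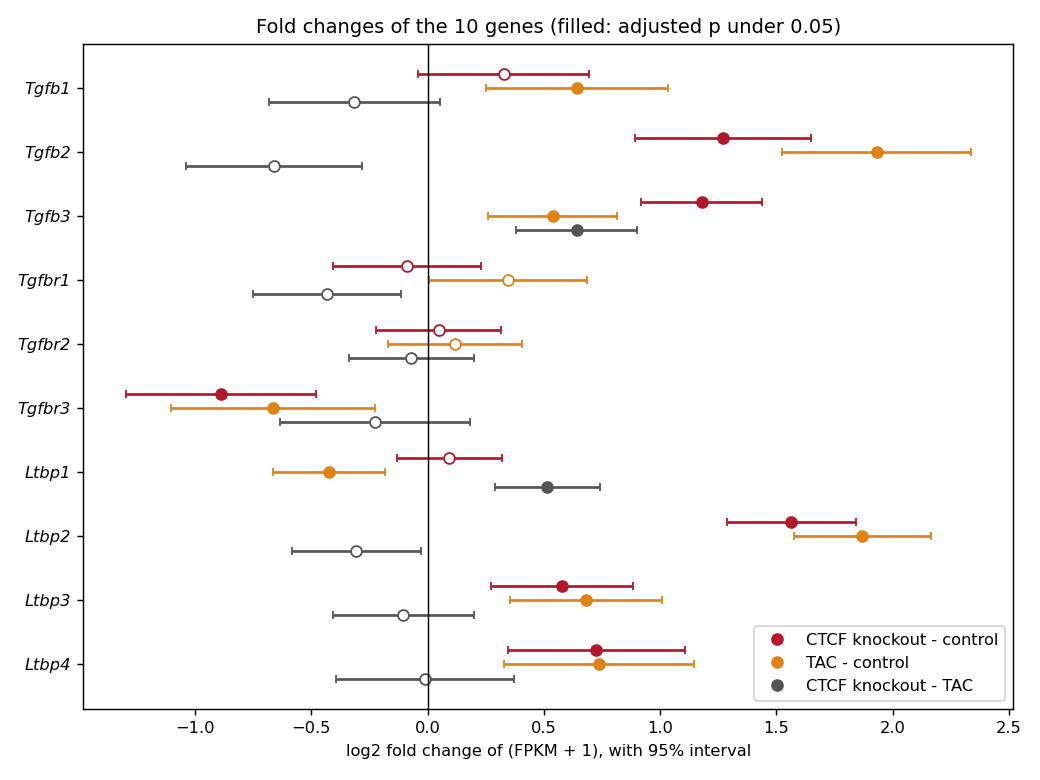
Log2 fold change of FPKM + 1 for each gene with its 95% interval (horizontal axis), for CTCF knockout against control, TAC against control and CTCF knockout against TAC. Filled points passed at an adjusted p under 0.05 in limma. Tgfb3 and Ltbp1 are the filled points of the knockout against TAC.

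The direct comparison of knockout with TAC called Tgfb3 and Ltbp1, both higher in the knockout, where 3.28% of all tested genes were called, 1.58% or 179 higher and 1.70% or 193 lower. For 3 of the 10, namely Tgfb3, Ltbp1 and Tgfbr1, knockout and TAC libraries did not overlap, as was so for 18.1% of all tested genes. Tgfbr1 was lower in every knockout than in every TAC library, but did not pass (log2 fold change -0.43, SE 0.15, limma adjusted p = 0.136). Tgfb3 averaged 5.71 ± 0.642 FPKM in knockout (SD, n = 4) and 3.30 ± 0.359 FPKM in TAC (SD, n = 3), a log2 fold change of 0.64 (SE 0.12, limma adjusted p = 0.0171). Ltbp1 averaged 11.9 ± 1.43 FPKM in knockout and 7.96 ± 0.302 FPKM in TAC, a log2 fold change of 0.52 (SE 0.10, adjusted p = 0.0231). Both calls were lost without TAC replicate 1 (adjusted p = 0.0641 for Tgfb3 and 0.0727 for Ltbp1) or TAC replicate 3 (0.0552 and 0.0696), that of Tgfb3 without knockout replicate 1 (0.0534) and that of Ltbp1 without TAC replicate 2 (0.0630). With every library scaled to the same total the median of all genes moved to -0.13, 55 genes rose and 175 fell, and the adjusted p was 0.101 for Tgfb3 and 0.234 for Ltbp1. Without rescaling 212 genes rose and 120 fell. Tgfb2 had a log2 fold change of -0.66 (SE 0.17, adjusted p = 0.0625), which passed in 4 of 22 alternatives, one being that without knockout replicate 4 (-0.81, adjusted p = 0.0174). The other 7 genes had adjusted p from 0.136 to 0.985.

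The order of the 10 levels also differed between the groups. FPKM is corrected for length, which allows a rough order of levels between genes. The sums include transcripts that are not protein-coding, as for Tgfbr3, so the order can depend on which transcripts are summed. In knockout libraries the order by mean was Ltbp4, Ltbp1, Tgfbr2, Tgfbr3, Tgfb3, Ltbp3, Tgfb2, Tgfbr1, Ltbp2 and Tgfb1, and the 7 genes from Tgfbr2 to Ltbp2 each overlapped their neighbour in this order. In TAC libraries it was Ltbp4, Tgfbr3, Tgfbr2, Ltbp1, Tgfb2, Ltbp3, Tgfbr1, Ltbp2, Tgfb3 and Tgfb1, where the ranges from Tgfbr3 to Tgfbr1 overlapped from neighbour to neighbour, as did those of Ltbp2 and Tgfb3. In control libraries it was Ltbp4, Tgfbr3, Ltbp1, Tgfbr2, Tgfbr1, Ltbp3, Tgfb3, Tgfb2, Tgfb1 and Ltbp2. There Ltbp4 overlapped Tgfbr3, Tgfbr3 overlapped Ltbp1, Tgfbr1 overlapped Ltbp3 and Tgfb2 overlapped Tgfb1. Ltbp2 held the last place in control libraries by a mean of 0.419 FPKM, below every library of Tgfb1.

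The 10 genes are annotated with 45 transcripts, of which 15 passed the filter of a mean of 1 FPKM. Of these 15, 6 rose and 1 fell in the knockout, where 14.6% of 17685 tested transcripts were called, and 5 rose and 2 fell in TAC, where 10.1% were called. Cufflinks divides reads between transcripts of a gene, so a transcript level is less certain than the sum. For Tgfb2 and Tgfbr2, the main protein-coding transcripts differ by the second coding exon. The exon keeps the reading frame and lengthens the protein by 28 codons in Tgfb2 and by 25 codons in Tgfbr2. Human TGFBR2 and TGFB2 have like forms, and the longer human receptor is known as TβRII-B. The exons, at chr1:186690721-186690804 and chr9:116158271-116158345 on the minus strand of mm10, are shown in capitals with 20 bases of the neighbouring exons in lower case, since these letters are what the transcripts differ by. They were read 5′ to 3′ from the GENCODE transcripts of the same build.
Tgfb2-206: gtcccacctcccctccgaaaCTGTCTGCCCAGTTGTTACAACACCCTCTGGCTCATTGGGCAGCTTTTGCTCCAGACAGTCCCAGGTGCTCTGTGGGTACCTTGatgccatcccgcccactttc
Tgfbr2-202: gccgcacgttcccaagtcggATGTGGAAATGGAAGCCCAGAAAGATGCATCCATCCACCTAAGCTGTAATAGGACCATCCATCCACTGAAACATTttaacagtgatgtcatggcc

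The receptor transcript with the 75-base exon, Tgfbr2-202, had 4.67, 2.70, 2.85 and 4.15 FPKM in knockout, 4.08, 3.63 and 4.70 FPKM in TAC, and 2.88, 2.51 and 1.48 FPKM in control libraries. Its share of Tgfbr2 was 54.9%, 36.6%, 44.9% and 49.6% in knockout, 48.4%, 46.7% and 59.2% in TAC, and 32.7%, 36.7% and 22.7% in control libraries. All TAC shares lay above all control shares, while the lowest knockout share, 36.6%, lay just under the highest control share, 36.7%. At the level of the transcript the differences did not pass, with log2 fold changes of 0.48 in the knockout (SE 0.20, limma adjusted p = 0.134) and 0.66 in TAC (SE 0.21, adjusted p = 0.0777). The shorter Tgfbr2-201 had log2 fold changes of -0.27 (adjusted p = 0.219) and, in TAC, -0.31 (adjusted p = 0.200). No test of the share was made.

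Both ligand transcripts rose. The transcript with the 84-base exon, Tgfb2-206, had 1.13, 1.57, 1.10 and 0.743 FPKM in knockout, 1.67, 2.85 and 3.16 FPKM in TAC, and 3.91e-05, 0.139 and 0.457 FPKM in control libraries. Its log2 fold changes were 0.84 in the knockout (SE 0.21, limma adjusted p = 0.0264) and 1.56 in TAC (SE 0.23, adjusted p = 0.00324). The shorter Tgfb2-201 rose by 0.92 on the log2 scale in the knockout (adjusted p = 0.00809) and by 1.51 in TAC (adjusted p = 0.00164). The share of Tgfb2-206 ranged from 11.8% to 37.1% in knockout, 27.3% to 38.0% in TAC and 0.00364% to 39.2% in control libraries, so the groups overlapped. Ltbp2-201, the longest annotated Ltbp2 transcript, had 3.20, 3.40, 2.56 and 2.74 FPKM in knockout, 2.52, 3.02 and 3.37 FPKM in TAC, and 0.210, 2.24e-08 and 0.152 FPKM in control libraries. In control replicate 2, the protein-coding Ltbp2-203 had 0.192 FPKM and the gene sum was 0.498 FPKM. Ltbp2-201 rose in both groups, by 1.83 in the knockout (adjusted p = 9.09e-05) and by 1.82 in TAC (adjusted p = 0.000179) on the log2 scale. Tgfb3 and Ltbp3 have 1 annotated transcript each.

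**Figure D4:**
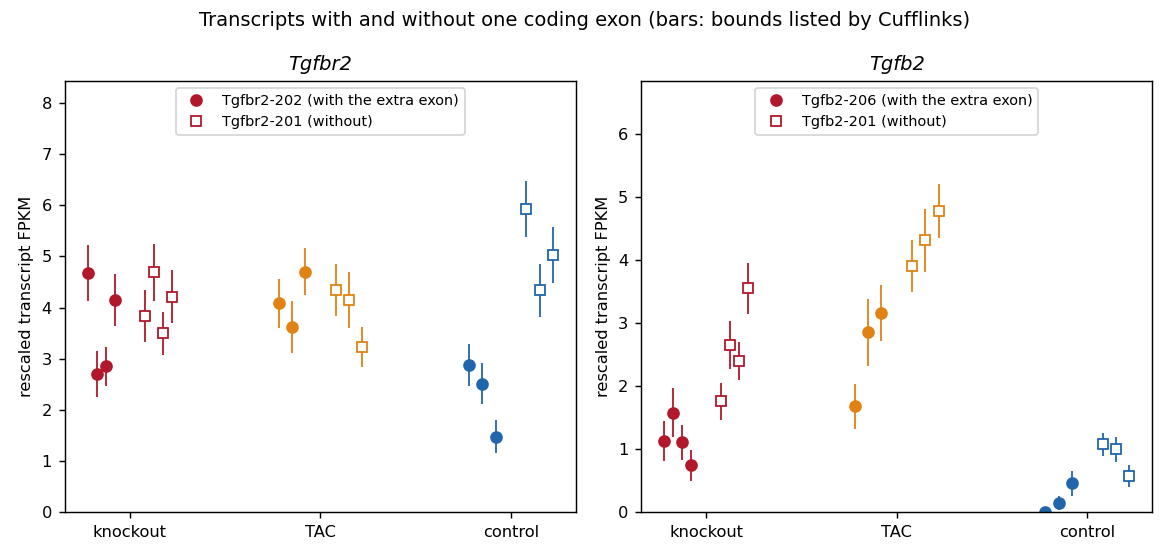
FPKM of the transcripts with (filled circles) and without (open squares) the extra coding exon of Tgfbr2 (left) and Tgfb2 (right), for each knockout, TAC and control library. Bars are the bounds that Cufflinks listed for each value. Tgfbr2-202 lies higher in all TAC than in all control libraries, and Tgfb2-201 and Tgfb2-206 lie higher in all knockout and TAC libraries than in all controls.

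Some markers of other cell types also differed between the groups, and since the samples are bulk RNA, fewer cells of a type and less RNA per cell cannot be told apart. Fibroblast markers, 12 of 12 summed, ranged from 251 to 420 FPKM in knockout, 296 to 346 FPKM in TAC and 170 to 318 FPKM in control. Of 11 tested, 5 rose in the knockout (Col1a1, Col1a2, Mfap5, Pi16 and Vim) and 4 in TAC (the same without Vim), while Dcn averaged 69.2 FPKM in knockout, 68.9 FPKM in TAC and 66.3 FPKM in control and Pdgfra 2.94 FPKM in knockout, 3.49 FPKM in TAC and 3.31 FPKM in control. The 12 endothelial markers summed to 114 to 193 FPKM in knockout, 135 to 196 FPKM in TAC and 92.8 to 128 FPKM in control, and Emcn, Vwf and Eng rose in the knockout, while in TAC 0 of 12 passed in limma, with 6 at an unadjusted p under 0.05. The 10 markers of smooth muscle and pericytes summed to 76.1 to 98.0 FPKM in knockout, 98.2 to 105 FPKM in TAC and 153 to 163 FPKM in control. Of 9 tested, Acta2 and Abcc9 fell and Cspg4 rose in both the knockout and TAC, and 6 did not pass in each. The median log2 fold change of these 9 was -0.0013 in the knockout and -0.10 in TAC. The 12 macrophage and leukocyte markers summed to 66.6 to 111 FPKM in knockout, 90.4 to 109 FPKM in TAC and 61.3 to 82.6 FPKM in control. Of 11 tested, Adgre1, Ctss and Coro1a rose and Cd163 fell in the knockout, and Ctss and Coro1a rose in TAC, where 9 had an unadjusted p under 0.05. Platelet markers, a source of Tgfb1, summed to 3.33 to 6.94 FPKM in knockout, 5.26 to 6.26 FPKM in TAC and 4.19 to 7.01 FPKM in control. Erythroid RNA ranged from 130 to 633 FPKM in knockout, 952 to 1677 FPKM in TAC and 288 to 1198 FPKM in control, and liver RNA from 0.531 to 2.19 FPKM in knockout, 0.959 to 1.31 FPKM in TAC and 6.22 to 9.16 FPKM in control. Alb fell in the knockout, Alb and Apoa2 fell in TAC, and the erythroid genes Hba-a1, Hba-a2 and Alas2 were lower in knockout than in TAC by the direct test. Of the 10 cardiac myocyte markers, Actn2 and Mybpc3 rose and Myh6, Tnni3, Ryr2 and Pln fell in the knockout. In TAC, Actn2 and Mybpc3 rose and Tnni3 and Pln fell. Over all tested genes, 20.8% were called in the knockout and 15.5% in TAC. No marker of these lists was at 0 in all libraries. Their part in the levels of the ligands, receptors and binders was not tested.

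Most tested genes that hold TGF-beta in the matrix or at the cell surface rose in both groups. Of 11 tested, 7 rose and 4 did not pass in the knockout, and 7 rose and 4 did not pass in TAC, with medians of 0.79 and, in TAC, 0.82 on the log2 scale. Over all tested genes, 10.6% rose in the knockout and 8.08% in TAC. Fbn1, Fn1, Emilin1, Bgn, Lrrc32, Adamtsl2 and Cilp were the genes that rose in each. Cilp, a matrix protein that binds TGF-beta 1, averaged 9.01 ± 2.85 FPKM in knockout (SD, n = 4), 9.65 ± 1.71 FPKM in TAC (SD, n = 3) and 0.463 ± 0.0729 FPKM in control (SD, n = 3). Its log2 fold changes were 2.73 in the knockout (limma adjusted p = 1.05e-05) and 2.85 in TAC (adjusted p = 1.49e-05). Fbn1, the fibrillin to which latent binders attach, averaged 9.14 ± 1.97 FPKM in knockout, 14.4 ± 1.98 FPKM in TAC and 3.30 ± 1.26 FPKM in control, with fold changes of 1.26 and, in TAC, 1.87. The small proteoglycan Bgn rose by 1.70 in the knockout and 1.77 in TAC, and Adamtsl2, a partner of fibrillin and Ltbp1, by 1.46 and, in TAC, 1.69. Leaving out each library or changing the scaling left 5 to 7 risen in the knockout and 5 to 7 in TAC, and the calls that were lost were those of Emilin1 and Lrrc32.

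Of 12 tested genes that release or activate latent TGF-beta, Itgb5, Mmp2 and Bmp1 rose in the knockout and 9 did not pass, where 10.6% of all tested genes rose. In TAC, Itgb5, Mmp14, Plat, Adamts1 and Tgm2 rose and 7 did not pass, where 8.08% of all tested genes rose. The direct test between knockout and TAC called Plat and Tgm2, where 3.28% of all tested genes were called. The other 10, with Mmp2, Bmp1, Mmp14 and Adamts1 among them, did not pass. Itgb5, a subunit of an integrin that binds the latency-associated peptide, averaged 39.7 ± 2.84 FPKM in knockout (SD, n = 4), 35.3 ± 4.86 FPKM in TAC (SD, n = 3) and 26.0 ± 0.342 FPKM in control (SD, n = 3). Tgm2, a transglutaminase that cross-links latent binders to matrix, averaged 54.6 ± 5.29 FPKM in knockout, 106 ± 19.5 FPKM in TAC and 55.3 ± 10.1 FPKM in control, and it was lower in knockout than in TAC by the direct test (log2 fold change -0.93, limma adjusted p = 0.00965). Plat, tissue plasminogen activator, was also lower in knockout than in TAC (-0.50, adjusted p = 0.0231). Bmp1, a protease that cleaves Ltbp1, had log2 fold changes of 0.49 in the knockout (adjusted p = 0.00749) and 0.24 in TAC (adjusted p = 0.171). The TAC calls of Itgb5, Mmp14 and Adamts1 were lost in 6, 5 and 7 of 13 such alternatives, which for each gene included leaving out control replicate 1 or TAC replicate 2, and the Plat call between knockout and TAC in 5, including each that left out a TAC library.

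Among co-receptors and surface inhibitors, all 4 tested genes passed in the knockout, where 20.8% of all tested genes were called. Eng, or endoglin, and the pseudoreceptor Bambi rose, and Lrg1, a secreted partner of endoglin, and Neo1, a co-receptor for BMP, fell. In TAC, Bambi rose, Neo1 fell and 2 did not pass, where 15.5% of all tested genes were called. Neo1 averaged 7.82 ± 0.410 FPKM in knockout (SD, n = 4), 9.07 ± 1.21 FPKM in TAC (SD, n = 3) and 14.3 ± 0.821 FPKM in control (SD, n = 3). Lrg1 was lower in knockout than in TAC (log2 fold change -0.87, limma adjusted p = 0.0462), a call lost in 11 of 13 alternatives. The Eng call was lost in 5, with adjusted p up to 0.110, and that of Neo1 in TAC with every library scaled to the same total (0.0716).

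Among the intracellular genes of the pathway, 1 of 5 tested Smads and 5 of 11 feedback inhibitors and co-repressors rose in the knockout. Over all tested genes, 20.8% were called in the knockout, 10.6% higher, and 15.5% in TAC, 8.08% higher. Of 5 Smads tested, Smad1, a mediator of BMP signals, rose in the knockout (log2 fold change 0.47, limma adjusted p = 0.00914) and 4 did not pass, and in TAC 0 passed in limma, with 1 at an unadjusted p under 0.05. Smad3, which carries the TGF-beta signal, averaged 3.31 ± 0.901 FPKM in knockout (SD, n = 4), 2.66 ± 0.750 FPKM in TAC (SD, n = 3) and 3.54 ± 0.860 FPKM in control (SD, n = 3). Of 11 feedback inhibitors and co-repressors, Smad6, Smad7, Skil, Tgif1 and Pmepa1 rose in the knockout and 6 did not pass, while in TAC 0 passed in limma, with 3 at an unadjusted p under 0.05 and no other tool run. Smad7, which blocks the receptors, averaged 8.83 ± 1.13 FPKM in knockout, 4.69 ± 0.694 FPKM in TAC and 4.15 ± 0.428 FPKM in control. It was the gene of this group that the direct test of knockout against TAC called (log2 fold change 0.79, adjusted p = 0.00777), and Smad6 did not pass there (0.68, adjusted p = 0.0513). With every library scaled to the same total the direct call of Smad7 was lost (adjusted p = 0.0607), and so was the call of Smad1 in the knockout against control (0.0755). The calls of Skil and Tgif1 were lost in 6 of 13 alternatives each, which included leaving out control replicate 1 or 2 or knockout replicate 1 or 2.

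Of 22 tested genes known as TGF-beta targets, 15 rose, 1 fell and 6 did not pass in the knockout, and 13 rose, 1 fell and 8 did not pass in TAC, with medians of 0.92 and, in TAC, 1.11 on the log2 scale. Over all tested genes, 10.6% rose and 10.2% fell in the knockout, and 8.08% rose and 7.37% fell in TAC. The list of targets contains Ltbp2 itself, and Skil, Smad7, Pmepa1 and Fn1 are counted in the groups above as well. Col1a1 and Col1a2 are also in the list of fibroblast markers and Acta2 in that of smooth muscle and pericytes, so these counts are not independent of the markers. Postn, a matrix protein of activated fibroblasts, averaged 34.3 ± 4.58 FPKM in knockout (SD, n = 4), 49.1 ± 5.29 FPKM in TAC (SD, n = 3) and 4.55 ± 0.999 FPKM in control (SD, n = 3). The collagens Col1a1 and Col1a2 rose by 1.61 and 1.41 in the knockout and by 1.81 and 1.39 in TAC. Acta2, smooth muscle actin, was the target that fell, by 1.39 in the knockout (limma adjusted p = 0.000667) and by 1.05 in TAC (adjusted p = 0.0073). The direct test between knockout and TAC called 1 of the 22, Smad7, where 3.28% of all tested genes were called.

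Of the related BMP, activin and GDF genes, few ligands passed the filter on low levels. Of 3 tested among 14 found, Bmp6 and Gdf15 rose in both groups, and Bmp4 did not pass. Over all tested genes, 20.8% were called in the knockout, 10.6% higher, and 15.5% in TAC, 8.08% higher. Gdf15, a stress-induced secreted factor, averaged 7.67 ± 2.92 FPKM in knockout (SD, n = 4), 9.86 ± 6.55 FPKM in TAC (SD, n = 3) and 0.772 ± 0.522 FPKM in control (SD, n = 3). Of 6 BMP and activin receptors, 0 passed in either group in limma, and 0 had an unadjusted p under 0.05. Of 4 secreted antagonists, Fstl1 and Fstl3, follistatin-like proteins, rose in both groups, and Twsg1 fell in the knockout by 0.36 on the log2 scale (adjusted p = 0.0378), a call lost in 9 of 13 alternatives. The Bmp6 call was lost in 1 alternative in the knockout and 4 in TAC, and the Fstl3 call in the knockout in 3. All of these left out a library, and each set included control replicate 2.

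**Figure D5:**
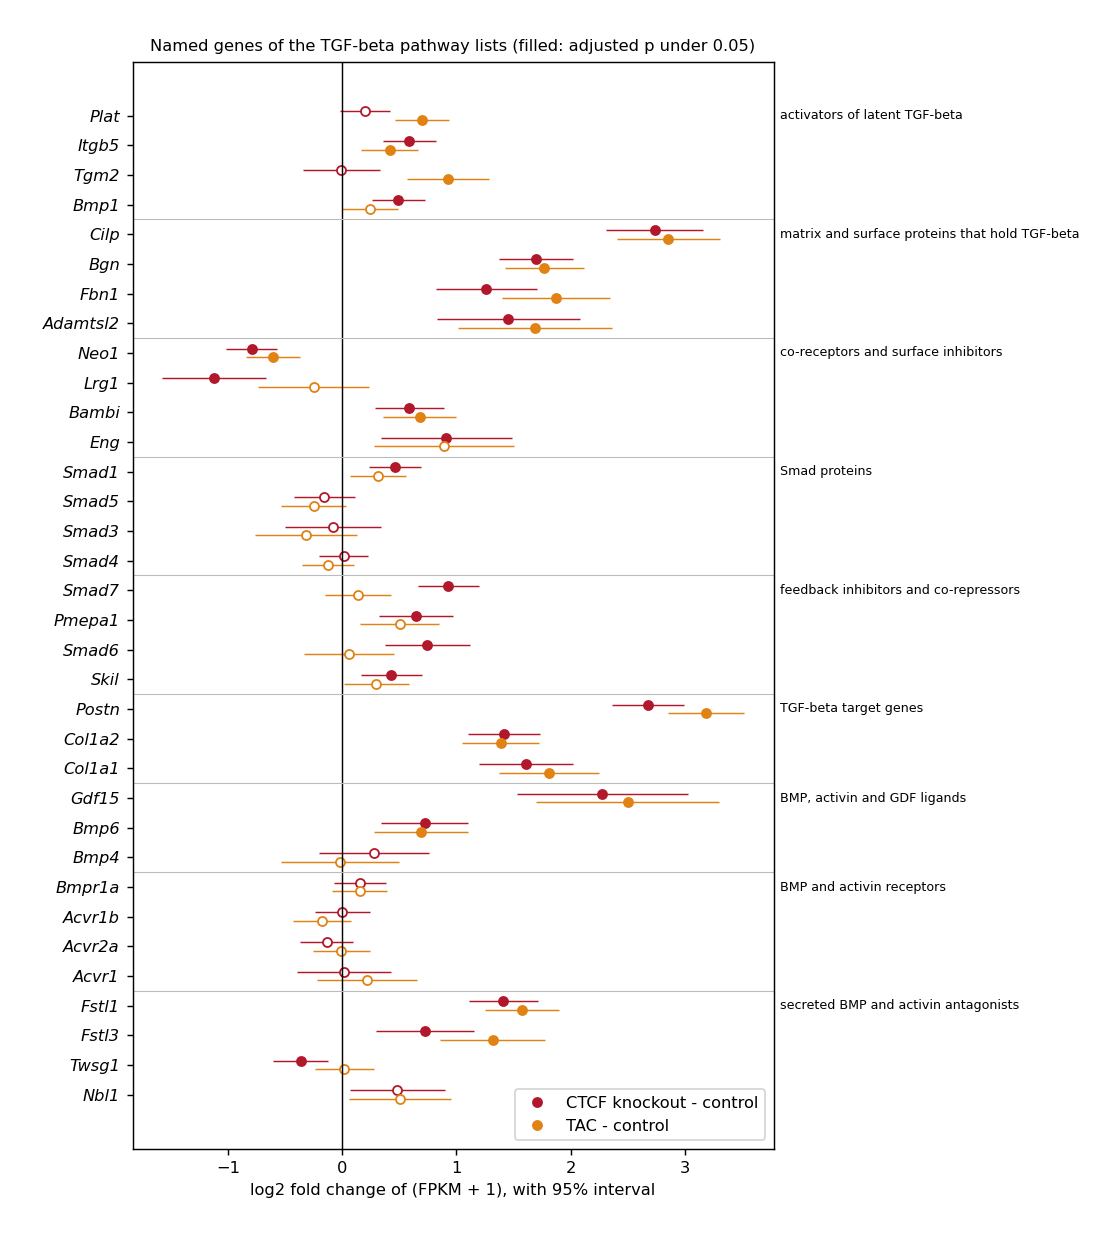
Log2 fold change of FPKM + 1 with its 95% interval for the named genes of each pathway group, for CTCF knockout against control and TAC against control. Filled points passed at an adjusted p under 0.05 in limma. Smad7 and Smad6 are filled for the knockout, and Tgm2 and Plat for TAC.

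Over the 10 libraries, which include the 3 groups and so carry their differences, the levels of Tgfb2 and Ltbp2 moved together (Pearson r of log2 levels 0.93, n = 10), as did those of Ltbp3 and Ltbp4 (r = 0.94). Ltbp1 had r between -0.56 and 0.34 with the other 9 genes. Outside the 10 genes, those most like Ltbp2 were Postn (r = 0.98), the chloride channel protein Clic5 (0.98), the secreted Fstl1 (0.98), the proteoglycan Cspg4 (0.98) and the deubiquitinase Usp28 (0.97). Those most like Tgfb3 were Tlr2 (0.97), an innate immune receptor, Etv5 (0.97), a transcription factor, and Rabep1, Zfp641 and Pdk3 (0.96 each). Etv5 averaged 11.4 FPKM in knockout, 5.76 FPKM in TAC and 2.66 FPKM in control. Those most like Tgfbr3 were Pcnt (0.98), a protein of the centrosome, Ppp1r3a (0.97), Npc1 (0.97), Lifr (0.97) and Fyco1 (0.97). These values are descriptions over libraries that share their groups.

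RefSeq promoters of GRCm38.p6 were found for 8 of the 10 genes, and not for Tgfb3 and Tgfbr3. The levels of Tgfb2 and Ltbp2 moved together over libraries that carry the group differences, as did those of Ltbp3 and Ltbp4. Whether promoters have a part in this was not tested. Of the promoters found, those of Tgfb2 and Ltbp2 are shown as examples. They are the bases upstream of the annotated starts, at chr1:186705990-186706239 (250 bases) and chr12:84876533-84876741 (209 bases), read 5′ to 3′ on the minus strand. Capitals mark the TATA box, at -31 to -26 from the start of Tgfb2.
Tgfb2: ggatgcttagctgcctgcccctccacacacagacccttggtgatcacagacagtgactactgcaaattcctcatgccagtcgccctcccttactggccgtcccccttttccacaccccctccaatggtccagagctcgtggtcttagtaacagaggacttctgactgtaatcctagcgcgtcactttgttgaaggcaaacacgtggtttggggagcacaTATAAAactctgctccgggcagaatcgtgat
Ltbp2: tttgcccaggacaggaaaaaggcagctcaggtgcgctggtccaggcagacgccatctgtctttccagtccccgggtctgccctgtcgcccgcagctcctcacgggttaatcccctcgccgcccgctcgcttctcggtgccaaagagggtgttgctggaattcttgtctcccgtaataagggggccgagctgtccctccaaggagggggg
Both strands were searched for 5 motifs in windows of 250 bases. The letters of a CTCF core, CCANNAGNNGGC, stood in 2.07% of 32851 RefSeq promoters, those of AP-1, TGANTCA, in 6.75%, those of the cyclic AMP response element, TGACGTCA, in 1.55%, those of the TATA box, TATAAA, in 12.4% and those of a Smad palindrome, GTCTAGAC, in 0.167%. Among the 8 genes, the TATA box was found in Tgfb2, and the cyclic AMP response element in Ltbp1, at -73 to -66. These matches describe letters in the window and nothing of what binds there.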

How the data were processed

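RNA-seq libraries of isolated cardiac myocytes were analysed from the transcript tables that the authors deposited. Per the labels' protocols, ribosomal RNA was removed and stranded paired-end libraries were sequenced, while the labels also name polyA RNA, so the selection of RNA is uncertain. Named in the submitters' processing notes are the build mm10, Cufflinks 2.2.1 with Cuffdiff, and TopHat2 2.1.0 with Bowtie2. Per the file headers and attributes, the deposited values are FPKM with lower and upper bounds for 109869 transcripts, and a Cufflinks score as deposited was not used. No other unit of the deposited files was used.

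Transcript FPKM was summed by gene ID. A set of 22 gene IDs at 0 in some libraries and with a median of at least 100 FPKM in the others was set apart, and genes whose transcripts all fell short of 300 nt were dropped. Median-of-ratios factors of 0.912 to 1.10 rescaled the libraries. Genes with a mean of at least 1 FPKM, 11358 in all, were compared as log2(FPKM + 1) in limma 3.58.1 (R 4.3.3), with all 10 libraries in 1 model, a variance trend and no covariate. Two-sided p values were adjusted by the Benjamini-Hochberg method across every tested gene, and adjusted p under 0.05 was called. The 17685 transcripts that passed the same filters were fitted likewise. The words rose and fell stand for called genes. The script was tested on simulated data.

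The 10 genes, the pathway and marker lists, the named-gene rule and the tests were chosen with earlier results of these data known. Named pathway genes are up to 4 per list with the smallest adjusted p, plus those that state a small count. The checks of pathway lists under other scalings and without each library, 13 alternatives, were added after the data were seen. Sex was read from Xist and Y-linked RNA for a covariate alternative. Promoters came from RefSeq (GRCm38.p6) and exons from GENCODE transcripts.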

Additional observations from a re-analysis of the deposited data

Results flagged for a closer look

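The effects of CTCF knockout and of TAC, each against control, differed for 2 of the 10 genes by the limma contrast of knockout against TAC. For Tgfb3 the knockout effect exceeded the TAC effect by 0.64 on the log2 scale (0.640705, adjusted p = 0.0171), with all 4 knockout libraries above all 3 TAC libraries. For Ltbp1 it exceeded it by 0.52 (0.515975, adjusted p = 0.0231), again with no overlap. Both contrasts share the control libraries, which cancel from the difference. In the 1 group of at least 4 libraries, CTCF knockout, no library of these genes stood apart from the rest by Dixon's test. With 4 libraries this test has little power, and the TAC and control libraries were not tested.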

How the results depend on the processing

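Directions of called changes of the 10 genes held in every alternative that could be run. Those that turned sign had not passed. Tgfbr1 in the knockout was 0.017 without rescaling and -0.18 to 0.012 without 1 library each (highest without control replicate 1). Tgfbr2 without 1 library each was -0.027 (control replicate 3) to 0.17 in the knockout and -0.12 to 0.0066 (knockout replicate 3) between knockout and TAC. Ltbp4 between knockout and TAC was 0.054 without rescaling, 0.061 with quantile normalization and -0.13 to 0.10 without 1 library each, above 0 without knockout replicate 3 (0.10), TAC replicate 1 (0.070) or TAC replicate 2 (0.028). Scaled to the same total, the comparison of knockout with TAC gave -0.21 for Tgfbr2 and -0.15 for Ltbp4.

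With a mean of at least 5 FPKM, fewer genes were tested, and 2 of the members were called in the knockout, 3 in TAC and 1 between knockout and TAC, with 1487 and, in TAC, 1167 of all genes. Transcript calls were 2 and 3 under that filter. With no filter, 5 were called in TAC and 195 of all genes between knockout and TAC. With every library scaled to the same total, 0 members were called between knockout and TAC (230 of all genes), and 1427 of all genes in the knockout; this moved the median of all genes to 0.12 in TAC. With only the groups compared, 1152 genes were called in TAC, and with sex as covariate 233 between knockout and TAC. The cause of these shifts was not tested.

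Correlations of same-numbered deviations between groups ranged from -0.36 to 0.33. Libraries with different numbers were not correlated for comparison, so whether replicate numbers pair the samples is not known. With the replicate block, 1 member (Tgfb2, -0.81 with adjusted p = 0.0189) and 200 of all genes were called between knockout and TAC, while Tgfb3 (0.0740) and Ltbp1 (0.0793) were not, and 4 transcripts were called in TAC.

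Without 1 library each, members called ranged from 4 to 6 in the knockout, 4 to 7 in TAC and 0 to 3 between them. All genes called ranged from 1687 to 2326, 1239 to 1661 and 133 to 448 in those comparisons, and transcripts from 4 to 7 in the knockout and 4 to 5 in TAC. Depth is unknown, which limits levels below 1 FPKM such as Ltbp2 in controls.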
